A study of Mus musculus with 15 samples.

Results

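The 40 genes described here are genes of G2 phase and mitosis, taken by symbol from a fixed list of cyclins, mitotic kinases, checkpoint, kinetochore, spindle and chromosome genes. All 40 were found among the 45706 genes of the deposited count table, and all 40 were among the 18983 genes with enough counts to be tested. RNA was sequenced from lineage-negative (Lin-) bone marrow cells, the cells left after magnetic depletion of cells that carry markers of mature blood lineages. The cells came from the femur of secondary recipients. LSK (Lin- Sca+ cKit+) stem and progenitor cells of young adult donors had been passed serially through lethally irradiated CD45.1+ mice, first to primary and then to secondary recipients.

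The 15 libraries fall into 4 donor genotypes. WT donors (3 libraries) carry both genes, and Puma-/- donors (4 libraries) lack the BH3-only death protein PUMA. G3 mTerc-/-Puma+/+ donors (4 libraries) lack the RNA component of telomerase, and G3 means that they were bred without it to the third generation so that telomeres shortened. G3 mTerc-/-Puma-/- donors (4 libraries) lack both. The deletions are constitutive, and the serial transplantation was common to all groups. The depletion removes lineage-positive cells only, so residual cells of the host can remain in the sample. The labels do not say that each library is a separate mouse, so p-values measure the spread between libraries.

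The targeted genes were checked first. Terc, the telomerase RNA, had 4 to 17 counts in each WT and Puma-/- library and 0 or 1 in each library of both G3 genotypes. Bbc3, which encodes PUMA, lay at 5.02 to 6.80 normalized CPM in the Puma-/- libraries and at 9.67 to 23.4 in WT. In the libraries labelled G3 mTerc-/-Puma-/- it lay at 13.5 to 17.0 normalized CPM, inside the range of 11.7 to 20.7 in G3 mTerc-/-Puma+/+. Cdkn1a, the cell cycle inhibitor p21 and a p53 target, was not the targeted gene. It lay at 79.2 to 110 normalized CPM in the 3 libraries of the labelled double mutant in the main fit and 166 in the one left out, 37.5 to 77.5 in G3 mTerc-/-Puma+/+, 22.0 to 56.3 in WT and 23.5 to 26.8 in Puma-/-. The labelled double mutant lies above the other groups in Cdkn1a, by a narrow margin, but Bbc3 does not separate the label of the double mutant from G3 mTerc-/-Puma+/+, and each result on the double mutant is given for the libraries labelled so. Libraries held 102790519 to 158367059 counts, with 1840 or more for every member in every library. The main fit used 14 libraries, without replicate 2 labelled G3 mTerc-/-Puma-/-, whose name is missing among the columns of the heatmaps drawn in the study (read from the pictures, with no reason given in its text), and values with all 15 are given where they differ.

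Mitosis begins when cyclin A and cyclin B activate the kinase CDK1. The chromosomes then attach through kinetochores to a spindle built by motor proteins, a checkpoint holds the cell until every kinetochore is attached, and a ubiquitin ligase, the anaphase-promoting complex, ends mitosis by marking cyclin B and securin for destruction. These genes are read mainly in G2 and mitosis. In resting cells the DREAM complex keeps them silent through a short promoter element called the cell cycle genes homology region (CHR), and in dividing cells factors such as B-MYB and FOXM1 act at the same promoters, often beside CCAAT boxes that bind NF-Y. In bone marrow their RNA is carried by cycling progenitors. In a bulk sample, fewer cycling cells and less RNA per cycling cell cannot be told apart.

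The promoters of the members shared letters that the choice of members did not use. Promoter windows of RefSeq (GRCm38.p6, 250 bases before to 50 bases after the start of transcription) were given for 33 of the 40 members, in 35 windows. Aurkb, Ccna2, Cdc25c, Foxm1, Incenp, Kif20a and Tpx2 had no entry. A CHR, searched as TTTGAA or TTCGAA on both strands, stood in 28 of the 35 windows (80.0%, exact 95% binomial interval 63.1% to 91.6%), beside 19.2% of the 32851 windows of all genes. A CCAAT box, searched as CCAAT on both strands, also stood in 28 of 35 (80.0%), beside 37.4% of all windows, and 26 of 35 windows (74.3%) held both, beside 7.52% of all windows. A CHR and a CCAAT box can share bases at their ends, and both were then counted. The windows of Bub3 overlap each other, as do those of Prc1, while the interval takes all windows as independent. Counted by gene, 26 of 33 members (78.8%) held a CHR, and 26 of 33 held a CCAAT box. Without a CHR in these letters were the windows of Birc5, Ccnb1, Cenpe, Mad2l1, Nuf2, Nusap1 and Pttg1.

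The motifs were most frequent near the start. Counted per 100 member windows, CCAAT boxes were most frequent 75 to 51 bases before it, at 40 beside 7.20 in all windows. The CHR was most frequent in the first 25 transcribed bases, at 28.6 beside 1.44 in all windows, and 24 of 33 members held a CHR within 50 bases of the start. Where only the inner part of the window was read, nearest to the start, 62.9% of the member windows held a CHR beside 9.20% of all windows, and 74.3% held a CCAAT box beside 24.1%.

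**Figure D1:**
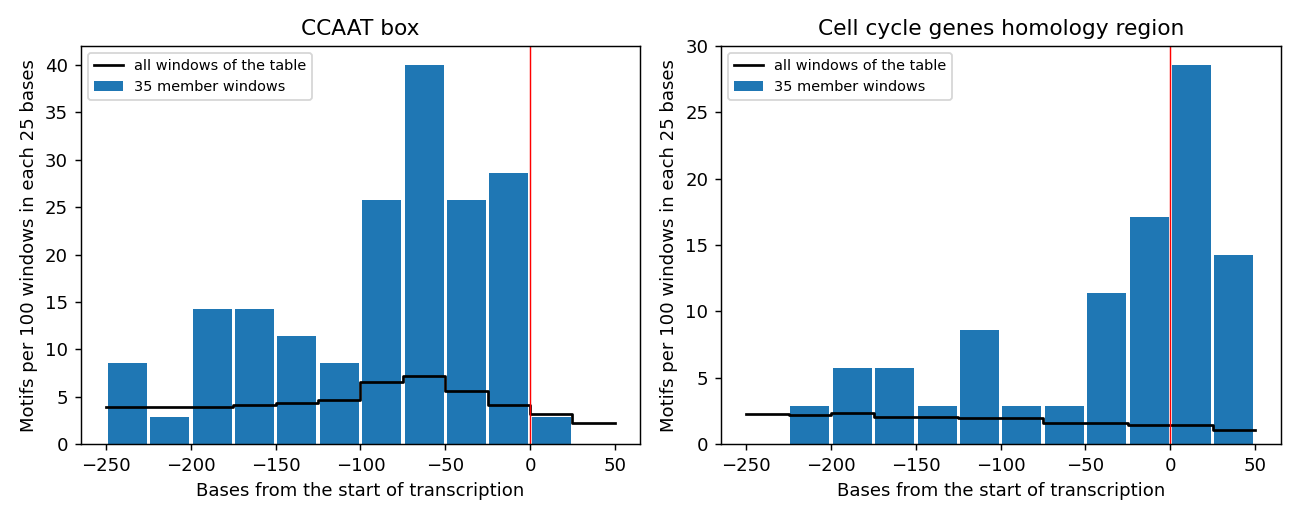
Motifs per 100 promoter windows in steps of 25 bases, by distance from the start of transcription (red line), for CCAAT boxes on the left and CHRs on the right. Bars are the 35 member windows and the black line is all 32851 windows: CCAAT boxes of the members peak before the start (40 beside 7.20) and CHRs just after it (28.6 beside 1.44).

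The windows of 6 members are printed, since the results below turn on them or their CHR lies elsewhere. Each run is the strand of the gene from 120 bases before the start to 24 bases after it, with the CCAAT boxes and CHRs of either strand in capitals. Bub1, Ttk and Ccnb1 are the members that passed the test between genotypes, Hmmr is the next in rank, and Cdk1 and Cdc20 have their CHR before the start.
Bub1, chr2:127831836-127831979, minus strand: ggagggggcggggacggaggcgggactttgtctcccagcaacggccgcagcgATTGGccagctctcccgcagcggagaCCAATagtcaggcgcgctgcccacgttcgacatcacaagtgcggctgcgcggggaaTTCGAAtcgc
Ttk, chr9:83834569-83834712, plus strand: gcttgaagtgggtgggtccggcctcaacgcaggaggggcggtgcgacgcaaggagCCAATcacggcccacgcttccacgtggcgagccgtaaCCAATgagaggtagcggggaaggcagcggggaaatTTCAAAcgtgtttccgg
Ccnb1, chr13:100786463-100786606, minus strand: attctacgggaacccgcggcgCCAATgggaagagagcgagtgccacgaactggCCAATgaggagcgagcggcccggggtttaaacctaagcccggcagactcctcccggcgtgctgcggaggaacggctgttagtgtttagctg
Hmmr, chr11:40733414-40733557, minus strand: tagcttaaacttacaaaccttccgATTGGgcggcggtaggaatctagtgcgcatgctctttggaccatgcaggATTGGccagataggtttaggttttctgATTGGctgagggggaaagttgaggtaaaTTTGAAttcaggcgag
Cdk1, chr10:69352889-69353032, minus strand: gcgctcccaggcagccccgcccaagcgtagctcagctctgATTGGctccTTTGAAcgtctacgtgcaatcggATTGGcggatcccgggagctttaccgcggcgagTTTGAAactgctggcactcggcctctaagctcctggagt
Cdc20, chr4:118437320-118437463, minus strand: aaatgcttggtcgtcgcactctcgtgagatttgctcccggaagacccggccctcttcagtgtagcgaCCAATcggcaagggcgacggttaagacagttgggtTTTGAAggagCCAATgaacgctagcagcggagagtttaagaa
In these runs the CHR begins at transcribed base 15 in Bub1, 8 in Ttk and 9 in Hmmr, and 18 bases before the start in Cdc20. Cdk1 has a CHR 71 and another 15 bases before the start. Ccnb1 has CCAAT boxes 99 and 67 bases before the start and no CHR in these letters.

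Per length, as the mean over the 14 libraries of CPM per kilobase of exon (RPKM), Ccnb2 was the highest at 86.3. Next came Top2a, the topoisomerase that untangles sister chromosomes, at 81.3, and Mki67, the proliferation antigen Ki-67 that coats mitotic chromosomes, at 79.7. Cdc20, the activator of the anaphase-promoting complex, stood at 77 RPKM and Ube2c, its ubiquitin-conjugating enzyme, at 61.3. The lowest were Cdc25c at 4.92, the kinetochore protein gene Cenpf at 5.67 and Ttk at 8.52 RPKM. Within a genotype the SD of a member on the log2 scale ran from 0.0855 for Ttk to 0.185 for Foxm1, with a median of 0.126, beside a median of 0.136 over the 7376 genes in the same range of levels.

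The members moved as a group from library to library. The mean log2 deviation of the 40 members from the mean of the 14 libraries was 0.0985, -0.0222 and 0.190 in the 3 WT libraries and -0.118, -0.180, -0.0443 and -0.149 in the 4 Puma-/- libraries. It was 0.0928, 0.125, -0.0274 and 0.115 in the 4 G3 mTerc-/-Puma+/+ libraries and 0.0189, -0.103 and 0.0026 in replicates 1, 3 and 4 labelled G3 mTerc-/-Puma-/-. Every Puma-/- library lay below 0, and 1 library of WT, G3 mTerc-/-Puma+/+ and the labelled double mutant did too. In WT replicate 3 all 40 members were above their mean, and in Puma-/- replicate 4 the count was 0.

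**Figure D2:**
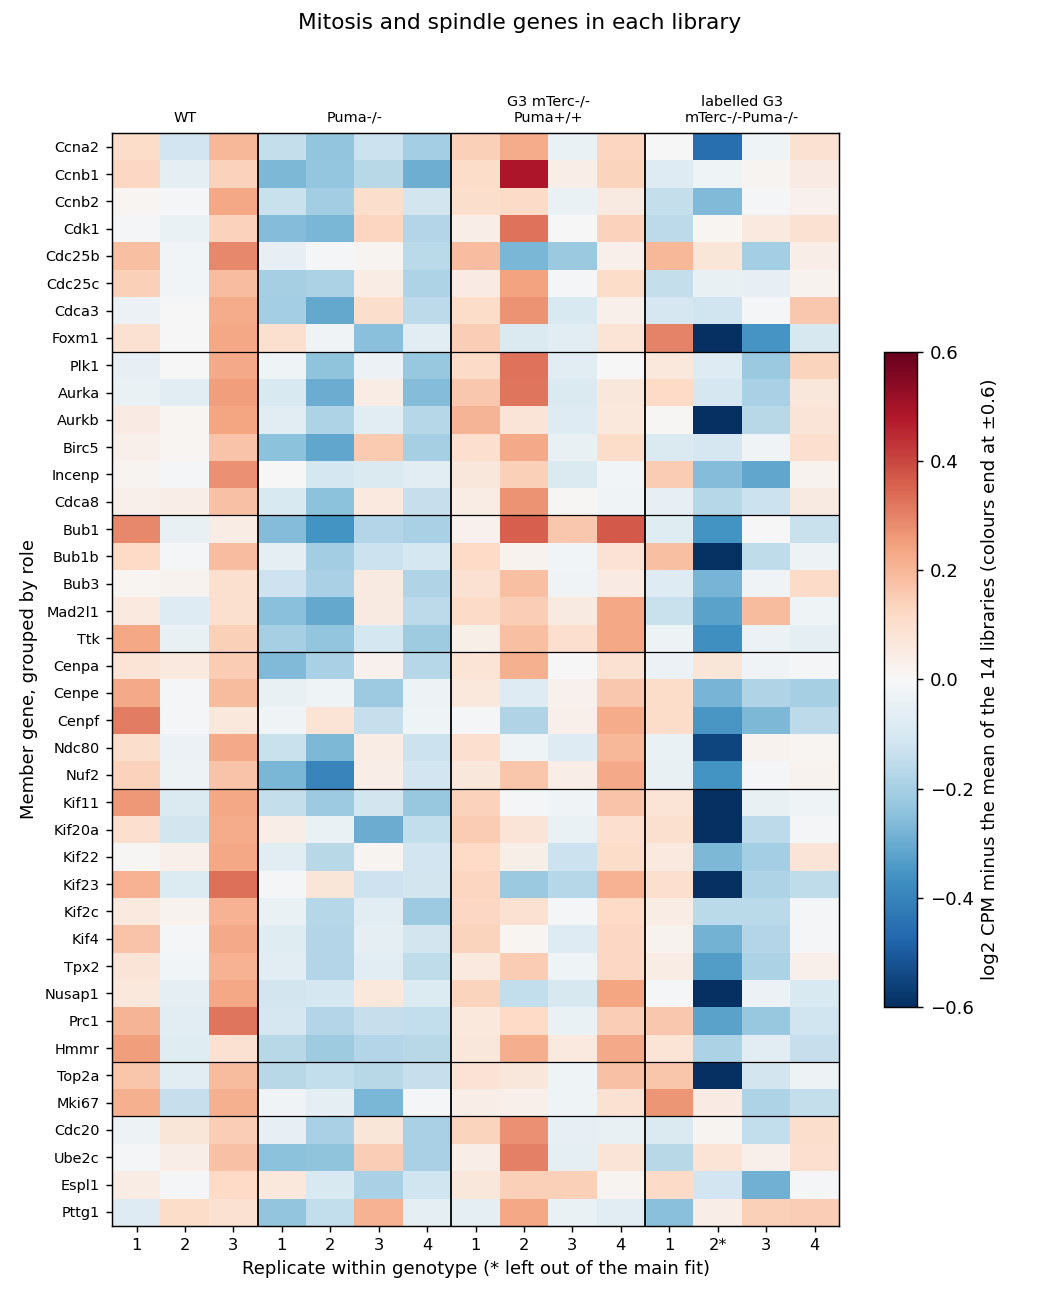
Log2 CPM of each of the 40 members (rows, grouped by role) in each of the 15 libraries (columns, grouped by genotype), minus the mean of the 14 libraries of the main fit. Red is higher and blue is lower: the Puma-/- columns are mostly blue, WT replicate 3 is red throughout, and the asterisk marks the library left out, where Kif23 is 1.09 below the mean.

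The left-out library had the lowest mean deviation, -0.287, and only 7 of 40 members above the mean. Kif23, a motor of cytokinesis, had 81.0 normalized CPM there against 148 to 216 in the other libraries, and Top2a deviated by -0.74 on the log2 scale. Mki67 (0.05), Ube2c (0.08) and Cdk1 (0.01) deviated little in the same library. Its erythroid markers summed to 2270 normalized CPM over the 10 genes of that list, beside 253 to 535 in the other 14 libraries, and the part of this in its members' levels was not tested.

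The clearest difference lay between G3 mTerc-/-Puma+/+ and Puma-/-, which by the labels compares telomerase loss with PUMA loss. Ddx3y, a gene of the Y chromosome, also separated these groups, at 42.6 to 48.0 normalized CPM in G3 mTerc-/-Puma+/+ and at most 0.0446 in Puma-/-. Of the 40 members, 3 passed the test, and all 3 were higher in G3 mTerc-/-Puma+/+: Bub1, Ccnb1 and Ttk (edgeR's quasi-likelihood test, Benjamini-Hochberg adjustment over all genes tested). Over all genes, 0.801% passed. At an unadjusted p under 0.05, 23 members passed, all of them higher, beside 17.1% of all genes in either direction. In direction, 39 of 40 members had a log2 fold change over 0, beside 49.9% of all genes, with a median of 0.19 for the members and -0.0005 for all genes. In 11 members every G3 mTerc-/-Puma+/+ library exceeded every Puma-/- library, beside 4.94% of all genes.

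Bub1 (ENSMUSG00000027379, chr2:127801122-127831865 of GRCm38, minus strand) encodes a kinase of the spindle checkpoint that sits at kinetochores. It was measured at 68.0, 63.4, 72.1 and 71.2 normalized CPM in the Puma-/- libraries and at 82.8, 104, 91.0 and 105 in G3 mTerc-/-Puma+/+. The ranges did not overlap. The level was 1.40-fold higher in G3 mTerc-/-Puma+/+ (log2 fold change 0.48, SE 0.090, adjusted p = 0.0410; exact two-sided permutation p = 0.0286, the smallest that 4 against 4 libraries allow). WT libraries had 99.2, 78.9 and 83.8 normalized CPM, and the 3 libraries labelled G3 mTerc-/-Puma-/- had 77.3, 81.4 and 74.3. These WT and labelled double mutant libraries thus lay above every Puma-/- library, but the left-out library had 63.4, inside the Puma-/- range.

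Ccnb1 (ENSMUSG00000041431, chr13:100778650-100786570, minus strand) encodes cyclin B1, the partner of CDK1 at entry into mitosis. It had 88.3, 90.8, 95 and 87.0 normalized CPM in Puma-/- and 115, 149, 110 and 117 in G3 mTerc-/-Puma+/+. It was 1.36-fold higher in G3 mTerc-/-Puma+/+ (log2 fold change 0.44, SE 0.089, adjusted p = 0.0431; exact two-sided permutation p = 0.0286). WT libraries had 116, 102 and 117, and the libraries labelled G3 mTerc-/-Puma-/- had 101, 108 and 110. A pseudogene is named after Ccnb1, and reads could be split between the copies.

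Ttk (ENSMUSG00000038379, chr9:83834689-83872389, plus strand) encodes the checkpoint kinase MPS1. It had 36.3, 35.4, 38.7 and 35.9 normalized CPM in Puma-/- and 42.8, 47.2, 44.7 and 49.0 in G3 mTerc-/-Puma+/+. The difference was 1.25-fold (log2 fold change 0.33, SE 0.068, adjusted p = 0.0469; exact two-sided permutation p = 0.0286). WT libraries had 49.0, 40.4 and 46.1, and the 3 main-fit libraries labelled G3 mTerc-/-Puma-/- had 40.8, 40.7 and 40.1. The left-out library of that label had 32.3, below every Puma-/- library.

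Hmmr and Ccna2 followed in rank and did not pass. Hmmr, a spindle protein that binds hyaluronan and microtubules, had 63.6 to 65.5 normalized CPM in Puma-/- and 76.7 to 86.1 in G3 mTerc-/-Puma+/+ (log2 fold change 0.33, SE 0.075, adjusted p = 0.0567). Ccna2, the gene of cyclin A2, had 135 to 146 in Puma-/- and 155 to 186 in G3 mTerc-/-Puma+/+ (log2 fold change 0.29, SE 0.075, adjusted p = 0.0804). Neither gene overlapped between these genotypes.

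**Figure D3:**
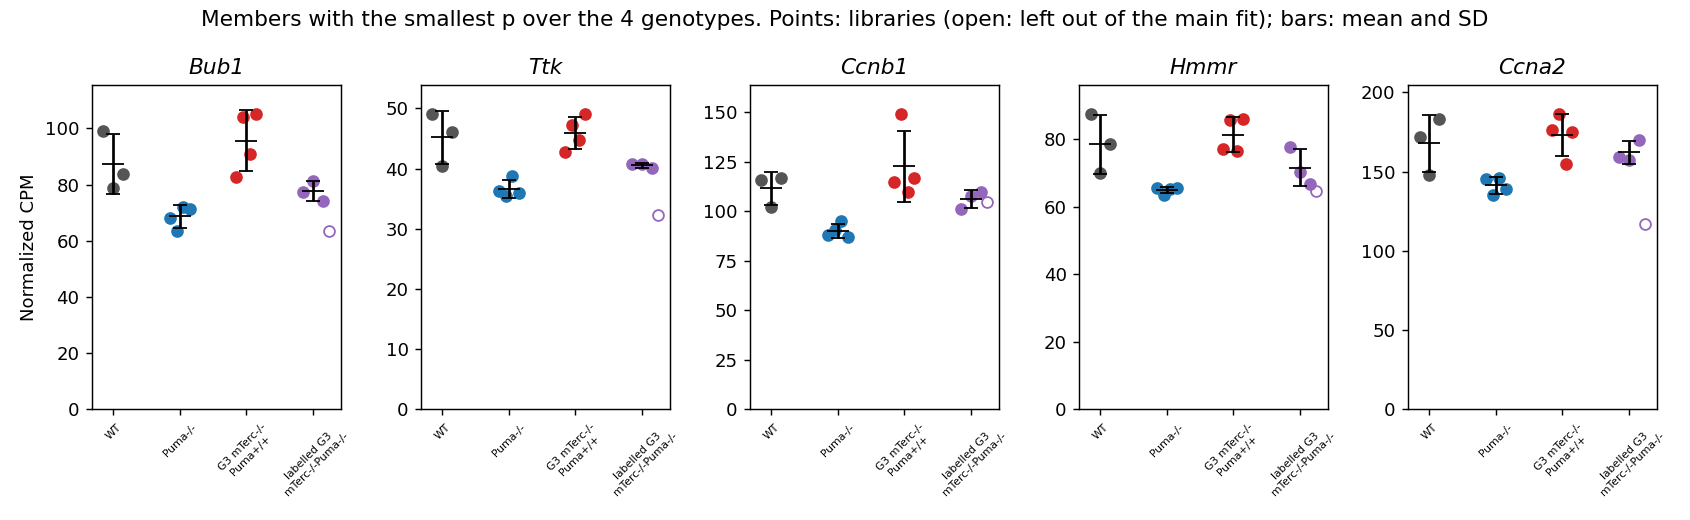
Normalized CPM of Bub1, Ttk, Ccnb1, Hmmr and Ccna2, the 5 members with the smallest p over the 4 genotypes, in each library, with the mean and SD of the libraries in the main fit. The Puma-/- libraries are the lowest group in every panel, Bub1 reaches 105 in G3 mTerc-/-Puma+/+, and the open circle is the library that was left out.

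The 3 calls rested on narrow margins. With all 15 libraries 0 members passed, and 0 passed with the level of Xist as a covariate, in a fit of these genotypes alone, or without any of Puma-/- replicates 1, 2 and 4, G3 mTerc-/-Puma+/+ replicates 2, 3 and 4 and labelled G3 mTerc-/-Puma-/- replicate 4. DESeq2 called 8, and 6 passed without Puma-/- replicate 3. Without WT replicate 1, G3 mTerc-/-Puma+/+ replicate 1 or labelled G3 mTerc-/-Puma-/- replicate 1 or 3, 1 passed. The 0.801% of all genes is that of the main fit, and shares under the alternatives are not given here. The log2 fold changes themselves stayed between 0.43 and 0.54 for Bub1, 0.33 and 0.49 for Ccnb1 and 0.28 and 0.36 for Ttk over all 25 alternatives, with adjusted p from 0.000222 to 0.202, 0.000519 to 0.234 and 0.00105 to 0.225.

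By role, the checkpoint genes differed most between G3 mTerc-/-Puma+/+ and Puma-/-, with a median log2 fold change of 0.30 over 5 genes. Bub1 and Ttk are among them, and Mad2l1, the gene of the MAD2 protein that inhibits CDC20, had 97.6 ± 11 normalized CPM in Puma-/- (SD, n = 4) and 120 ± 6.14 in G3 mTerc-/-Puma+/+ (n = 4; log2 fold change 0.30, adjusted p = 0.120). Bub1b, the gene of BUBR1, had a log2 fold change of 0.18 (adjusted p = 0.250). The entry genes had a median of 0.22 over 8 genes, with 0.27 for Cdk1, 0.08 for Foxm1 and -0.0093 for Cdc25b, the only member under 0.

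The mitotic kinases and the chromosomal passenger complex had a median log2 fold change of 0.21 over 6 genes in the same comparison. Plk1 (0.23), Aurka (0.27), Aurkb (0.19) and the passenger protein gene Birc5 (0.24), which encodes survivin, were all over 0 and did not pass. The 10 genes of spindle motors and bundlers had a median of 0.19, with 0.25 for Kif11, the motor that separates spindle poles, and 0.19 for Tpx2, the activator of Aurora A. Kif20a had 0.18, and 29.3% of its exonic bases are shared with Cdc23, so reads of the genes cannot be told apart where strand was ignored in counting.

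The 5 kinetochore and centromere genes had a median of 0.17. Cenpa, the centromeric histone, stood at 0.25 (adjusted p = 0.0995) and Ndc80, which binds microtubules, 0.17. The exit genes had a median of 0.17 over 4 genes, with Cdc20 at 0.17, Ube2c at 0.22, the separase gene Espl1 at 0.18 and the securin gene Pttg1 at 0.07. Top2a had 0.23 and Mki67 0.12. None of these passed the adjusted test.

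The same members were lower in Puma-/- than in WT, which by the labels differ in Puma alone. The Y-linked gene Ddx3y also separated these groups, at most 0.0446 normalized CPM in Puma-/- and 21.2 to 43.0 in WT. The comparison shares its Puma-/- libraries with the one above. All 40 members had a log2 fold change under 0, beside 49.1% of all genes, and they ranged from -0.35 for Bub1 to -0.09 for Pttg1 with a median of -0.20, beside 0.0048 for all genes. By edgeR's test 0 members passed after adjustment, beside 0.0790% of all genes, and 18 had an unadjusted p under 0.05, beside 10.1% of all genes. DESeq2 called 1 member, Ttk, and its share over all genes is not given here.

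In 15 members every Puma-/- library was lower than every WT library, beside 4.21% of all genes. By role these were 2 of 8 entry genes, 1 of 6 kinases and passenger genes, 3 of 5 checkpoint genes, 2 of 5 kinetochore genes, 6 of 10 spindle genes, 1 of 2 chromosome genes and 0 of 4 exit genes. Kif11 had 219 to 278 normalized CPM in WT and 198 to 215 in Puma-/- (log2 fold change -0.32, SE 0.087, adjusted p = 0.341). Top2a had 697 to 833 in WT and 650 to 663 in Puma-/- (-0.26, adjusted p = 0.412). Foxm1, the transcription factor of this program, had 131 to 154 and 111 to 140, which overlap (-0.17, adjusted p = 0.681).

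Without WT replicate 2, the WT library with the lowest members, the median in Puma-/- against WT was -0.26, and without WT replicate 3, the highest, it was -0.15. Immediate early genes, which rise when cells are handled, summed to 1870, 4580 and 4800 normalized CPM as the lowest, median and highest WT library and to 1950 to 2860 in Puma-/-. WT replicates 1 and 3, with high immediate early genes, are also the WT libraries with high members, and the part of this in the result was not tested.

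Telomerase loss with PUMA present was not separated from WT. In G3 mTerc-/-Puma+/+ against WT, 24 members were under 0 and 16 over 0, beside 45.5% of all genes under 0, with a median of -0.01. The sign of this median turned with single libraries, from -0.06 without WT replicate 2 to 0.04 without WT replicate 3. By edgeR's test 0 members passed after adjustment and 0 had an unadjusted p under 0.05, beside 0.0369% and 3.86% of all genes, and DESeq2 called 0. The lowest was Cdc25b, a phosphatase that activates CDK1, at -0.21 (60.3 ± 6.33 normalized CPM in WT, n = 3, and 52.0 ± 7.86 in G3 mTerc-/-Puma+/+, n = 4), and the highest was Bub1 at 0.13. SEs of the named members lay between 0.073 and 0.13 on the log2 scale, so small differences were not detectable here.

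By the median over the members in the main fit, the libraries labelled G3 mTerc-/-Puma-/- stood between Puma-/- and the other groups. In the mean deviation of single libraries they overlapped with each of these groups. Against WT, 40 of 40 members were under 0, beside 50.0% of all genes, with a median of -0.12. After adjustment 0 members passed, beside 0.0632% of all genes, and 2 had an unadjusted p under 0.05, beside 5.45%. Those 2, Kif4 and Cenpe, were named after their values were seen. Cenpa alone had every library lower than every WT library (145 to 148 against 156 to 166 normalized CPM), beside 3.20% of all genes, and with the left-out library (157) the ranges overlapped. Without WT replicate 3 the median was -0.05, and with all 15 libraries it was -0.17.

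Against Puma-/-, the libraries labelled G3 mTerc-/-Puma-/- had 37 of 40 members over 0, beside 52.0% of all genes, with a median of 0.09. After adjustment 0 members passed, beside 0.306% of all genes, and 2 had an unadjusted p under 0.05, Ccnb1 (log2 fold change 0.24) and Ccna2 (0.20), beside 8.42%. In 7 members every library was higher than every Puma-/- library, beside 3.98% of all genes. Bub1, Ttk, Ccnb1, Ccna2, Hmmr, Kif11 and Top2a are those 7, and the count holds for the 3 libraries of the main fit. With the left-out library, 6 of the 7 overlapped Puma-/-, for example Bub1 (63.4 normalized CPM) and Ttk (32.3), Ccnb1 (105) alone did not, and the median over the members was 0.05. Without replicate 3 labelled G3 mTerc-/-Puma-/- it was 0.15.

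Against G3 mTerc-/-Puma+/+, which by the labels differs in Puma alone although the levels of Bbc3 overlapped, the libraries labelled G3 mTerc-/-Puma-/- had 39 of 40 members under 0, beside 53.7% of all genes, with a median of -0.10. After adjustment 0 members passed, beside 0.0738% of all genes. An unadjusted p under 0.05 was found for 4 members, beside 6.22% of all genes: Bub1 (log2 fold change -0.30, SE 0.098), Ccnb1 (-0.21), Hmmr (-0.18) and Ttk (-0.18). In 4 members, Bub1, Ttk, Cenpa and Nuf2, every library was lower, beside 2.40% of all genes. Nuf2 was named after its values were seen, and Cenpa overlapped with the left-out library. Without replicate 3 labelled G3 mTerc-/-Puma-/- the median was -0.06, and with all 15 libraries it was -0.17.

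**Figure D4:**
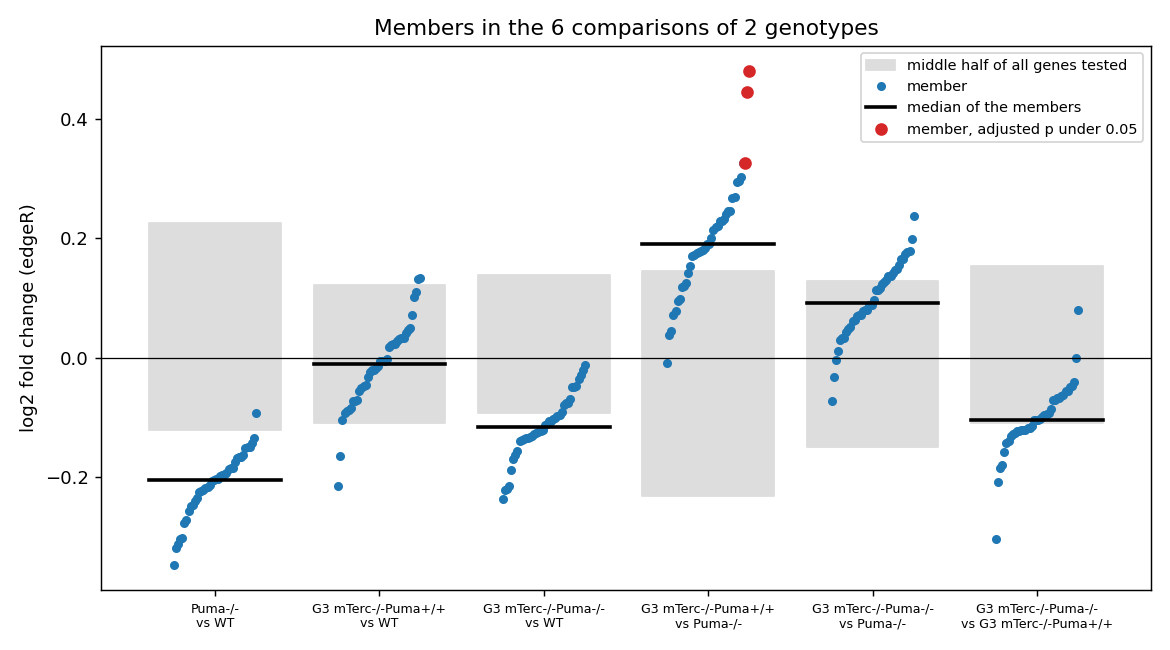
Log2 fold change of each of the 40 members (points) in the 6 comparisons of 2 genotypes, with the median of the members (line) and the middle 50% of all 18983 genes (grey). The members lie below 0 in Puma-/- and, as labelled, in the double mutant when each is set against WT, around 0 in G3 mTerc-/-Puma+/+ against WT, and the 3 red points that passed the test are Bub1, Ccnb1 and Ttk.

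The interaction tests whether the libraries labelled Puma-/- differ from those without that label by the same amount in both telomerase backgrounds, where Bbc3 of the labelled double mutant overlaps G3 mTerc-/-Puma+/+. Its log2 value was over 0 for 39 of 40 members, beside 48.8% of all genes, with a median of 0.10. This median rested on single libraries, at 0.06 without WT replicate 3, 0.07 without G3 mTerc-/-Puma+/+ replicate 3, 0.15 without WT replicate 2 and 0.16 without Puma-/- replicate 3, and it was 0.05 with all 15 libraries. After adjustment 0 members passed and 0 had an unadjusted p under 0.05, beside 0.0527% and 4.93% of all genes, and DESeq2 called 0. Cdc25b had the highest value at 0.28 (SE 0.17). In the test of any difference among the 4 genotypes, 0 members passed, beside 0.448% of all genes, and 14 had an unadjusted p under 0.05, beside 11.4%. The lowest adjusted p values there were 0.0836 for Bub1, 0.1 for Ttk, 0.118 for Ccnb1, 0.163 for Hmmr and 0.246 for Ccna2. DESeq2 called 4 members in that test, and its share over all genes is not given here.

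Other genes of mitosis mostly had fold changes of the same sign as the members. Of 118 such genes in 5 lists, 117 were tested. Between G3 mTerc-/-Puma+/+ and Puma-/-, 112 were over 0, beside 49.9% of all genes, with a median of 0.17, and 54 had an unadjusted p under 0.05, all higher, beside 17.1% of all genes. The condensin gene Ncapg alone passed after adjustment (log2 fold change 0.50, SE 0.085, adjusted p = 0.0255), and 1 of 117 is close to the 0.801% of all genes that passed. All 34 further kinetochore and centromere genes were over 0 (median 0.21), as were 18 of 19 condensin and cohesin genes (0.17), 25 of 26 spindle and cytokinesis genes (0.17), 19 of 21 entry and DREAM genes (0.17) and 16 of 17 genes of the anaphase-promoting complex (0.09). In Puma-/- against WT, 113 of the 117 were under 0, beside 49.1% of all genes (median -0.16), and 0 passed by edgeR, with 37 lower at an unadjusted p under 0.05, beside 10.1% of all genes in either direction.

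Genes of DNA replication and the G1/S transition had fold changes of the same sign in these comparisons. Of 35, 34 were over 0 in G3 mTerc-/-Puma+/+ against Puma-/-, beside 49.9% of all genes (median 0.17), and Ccne1 (log2 fold change 0.48, adjusted p = 0.0429) and Ccne2 (0.47, adjusted p = 0.0287), the genes of the E cyclins that start S phase, passed, beside 0.801% of all genes. All 35 were under 0 in Puma-/- against WT (median -0.14), where 0 passed by edgeR and 8 had an unadjusted p under 0.05, beside 10.1% of all genes. Against WT, the labelled double mutant had its replication genes split, 14 over and 21 under 0 with a median of -0.004, beside 40 of 40 members under 0. The difference between the lists was not tested.

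Markers of other cell types also differed between the groups. The 5 megakaryocyte markers summed to 319 to 533 normalized CPM in Puma-/-, 129 to 277 in WT, 153 to 218 in G3 mTerc-/-Puma+/+ and at most 174 in the 3 libraries labelled G3 mTerc-/-Puma-/-. Of the 5, 3 (Pf4, Gp9 and Gp1bb) passed as lower in G3 mTerc-/-Puma+/+ than in Puma-/-, beside 0.801% of all genes. In the labelled double mutant against Puma-/-, 4 (Pf4, Gp9, Gp1bb and Ppbp) passed as lower, beside 0.306%. The 8 stem and progenitor markers summed to 505 to 659 in Puma-/-, 478 to 524 in WT and 382 to 570 in G3 mTerc-/-Puma+/+, and 0 passed. Gene by gene, all 8 were lower in G3 mTerc-/-Puma+/+ than in Puma-/- (median log2 fold change -0.61). Of these, 5 had an unadjusted p under 0.05, beside 17.1% of all genes. In Puma-/- against WT, 7 of the 8 were higher (median over the 8 of 0.51), 4 at that p, beside 10.1% of all genes. The 4 mast cell and basophil markers summed to 2330 to 3720 in Puma-/- and 1190 to 2220 in G3 mTerc-/-Puma+/+, with 0 passing. In WT they summed to 1600 to 3320 and in the labelled double mutant to 1230 to 2460, which both overlap Puma-/-. The 6 late neutrophil markers summed to 1350 to 3430 in the 3 main-fit libraries of the labelled double mutant, above the 669 to 1230 of WT. The 3 plasmacytoid dendritic markers summed to 183 to 215 there, above the 126 to 144 of WT. In the left-out library the late neutrophil markers summed to 4500, and the plasmacytoid dendritic markers to 70.1, below every WT library. By edgeR's test 0 markers passed after adjustment in the late neutrophil, plasmacytoid dendritic, mast cell, stem cell, erythroid, early granulocyte, monocyte, and T and NK lists in any comparison of 2 genotypes. In the labelled double mutant against WT, 5.45% of all genes had an unadjusted p under 0.05. So did 4 of 6 late neutrophil, 3 of 3 plasmacytoid dendritic and 3 of 10 erythroid markers, all higher. Lower at that p were 4 of 5 megakaryocyte markers and 1 of 8 stem and progenitor markers. The erythroid markers summed to 361 to 535 in the labelled double mutant, beside 287 to 347 in WT. All markers of these lists passed the filter on low counts, and none was at 0 in every library. Their part in the members' levels was not tested.

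Sex-linked genes also differed. Ddx3y, a gene of the Y chromosome, had at most 0.0446 normalized CPM in Puma-/- and 42.6 to 48.0 in G3 mTerc-/-Puma+/+. It had 21.2 to 43.0 in WT and 2.87 to 45.9 in the labelled double mutant, so Puma-/- overlapped with no other group, and Y-linked expression and the Puma-/- genotype cannot be told apart in any comparison with Puma-/-. Xist, the RNA of the inactive X chromosome, lay at 464 to 865 normalized CPM in the Puma-/- libraries, 0.176 to 88.6 in G3 mTerc-/-Puma+/+, 1.72 to 417 in WT and 0.386 to 660 in the labelled double mutant. Some libraries held both RNAs, such as WT replicate 1 (Xist 417, Ddx3y 21.2) and WT replicate 2 (211 and 26.4), and the source was not tested. With the log2 level of Xist as a covariate, the median of the members in G3 mTerc-/-Puma+/+ against Puma-/- was 0.18, beside 0.19 without it. The 3 calls were lost. In Puma-/- against WT the median was -0.21, beside -0.20 without it. Xist in Puma-/- overlapped with neither G3 mTerc-/-Puma+/+ nor WT, so this fit cannot separate its level from the genotype.

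**Figure D5:**
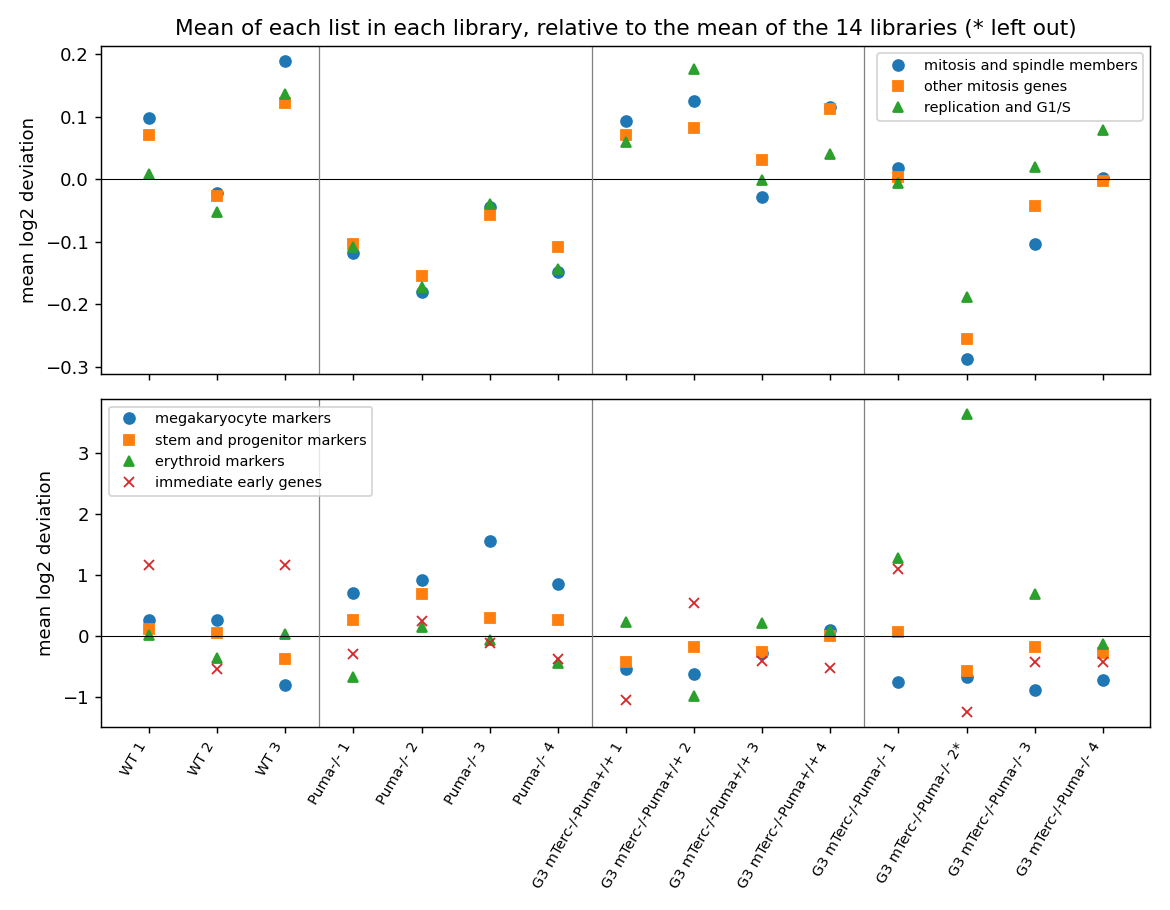
Mean log2 deviation of each gene list in each library from the mean of the 14 libraries of the main fit, for the 3 cell cycle lists (top) and for markers of other cells (bottom). The 3 cell cycle lists lie below 0 in all 4 Puma-/- libraries, where megakaryocyte markers lie above 0, and erythroid markers reach 3.63 in the left-out library (asterisk).

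Within genotypes the members rose and fell together, but not all of them. The median Pearson r of the deviations from the genotype mean was 0.422 over the 780 pairs of members (14 libraries that share depth and scaling), beside -0.003 over pairs of all genes, and 150 pairs were below 0. The closest pair was Cdk1 and Ube2c at 0.982. Tpx2 had the highest mean r with the other members, 0.551, and Cenpf (0.042) and Pttg1 (0.054) the lowest. Cenpe, a kinetochore motor, and Pttg1 had the lowest r of all pairs, -0.865, followed by Cenpf with Pttg1 (-0.817) and Foxm1 with Pttg1 (-0.782).

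These opposite movements went in part with exonic length, taken over the merged exons of all transcripts of a gene. Exonic length ran from 1531 bases in Ccnb2 to 15433 in Cenpf. Across the 40 members, Spearman's rho between length and deviation ranged from -0.683 in replicate 4 labelled G3 mTerc-/-Puma-/- to 0.596 in WT replicate 1, and it was over 0 in 7 libraries and under 0 in 8. Over all genes tested it ranged from -0.26 to 0.235. Pttg1, with 2000 bases, had 22.1 normalized CPM in Puma-/- replicate 3 and 16.2 to 18.4 in the other Puma-/- libraries, while Mki67, with 10061 bases, had 660 there and 768 to 791 in the others. Mad2l1, with 8390 bases, instead went with Pttg1, at 113 in Puma-/- replicate 3 and 88.0 to 97.7 in the other Puma-/- libraries. The part of length in the members' differences was not tested, and genes are not independent points.

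Outside the list, the protein-coding genes whose log2 level was most like the mean of the members over the 14 libraries were Nek2 (Pearson r 0.961), Cenpn (0.959), Fbxo5 (0.9345), Suv39h1 (0.931), Ugdh (0.925), Ska3 (0.92), Cdca5 (0.9195), Hnrnpl (0.919), Wdr45b (0.919) and Emb (0.917). Among the members themselves, r with the mean was highest for Tpx2 (0.962) and lowest for Pttg1 (0.257).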

How the data were processed

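Poly(A)-selected, stranded libraries of Lin- cells were made by the authors, trimmed with Trimmomatic (0.38) and counted per gene with STAR (2.5.2b) on GRCm38/mm10, per the labels and the methods of the study. The deposited values are raw counts per Ensembl gene, without normalization. The annotation release and strand setting are not given in the sources used here, so antisense neighbours may share reads. Symbols, coordinates and exonic lengths came from GENCODE vM21. All columns matched a sample by name, with 0 unmatched.

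From these counts edgeR (4.0.16, in R 4.3.3) was run with filterByExpr (18983 genes), TMM factors (0.926 to 1.07), a fit of the 4 genotypes on 14 libraries, the quasi-likelihood test (common biological coefficient of variation 0.251) and Benjamini-Hochberg adjustment over all genes tested with a threshold of 0.05. Replicate 2 labelled G3 mTerc-/-Puma-/- was left out because its library name is missing among the columns of the heatmaps drawn in the study, as read from the pictures, although its text names no omission and its statistics section says nothing was excluded. Normalized CPM are CPM of the TMM-scaled library, log2 CPM used a prior count of 2, and RPKM divide CPM by kilobases of exon. Single members were also compared by exact two-sided permutation of the difference of means. Depth was 102790519 to 158367059 counts per library, and binomial intervals cover counting error only. Alternatives were DESeq2 (1.42.0), limma-voom (limma 3.58.1), other scalings and filters, all 15 libraries, a replicate block, an Xist covariate, fits of the compared genotypes and leaving out each library. A fit of all 15 libraries with limma sample weights was chosen after seeing the data. Simulated counts with known changes served to test the fits.

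Members, lists and tests were chosen with earlier results of these data known. Named members are those past the adjusted threshold, the 5 with the smallest p in the test of any difference, 20 fixed representatives of the roles, and others only as the highest or lowest of a quantity or where a count of 5 or fewer holds them. The genes most like the members are the 10 with the highest r. The summed markers and the promoter motifs are descriptions. The result of 1 marker list is not reported here.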

Additional observations from a re-analysis of the deposited data

Results flagged for a closer look

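In groups of 4 libraries, 24 named members and the mean of all members were examined for a library far from the others (75 groups, all 15 libraries). A gap that exceeded Dixon's 95% critical value was found in 5, and chance flags about 1 group in 20. In replicate 2 labelled G3 mTerc-/-Puma-/-, Ttk was at 32.3 normalized CPM with the nearest other library at 40.1, and Ndc80 was at 41.1 with the nearest at 58.5. In Puma-/-, Ube2c was at 176 in replicate 3 with the nearest at 138, and Hmmr was at 63.6 in replicate 2 with the nearest at 65.3. In G3 mTerc-/-Puma+/+, Pttg1 was at 22.4 in replicate 2 with the nearest at 18.6. The causes were not tested.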

How the results depend on the processing

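Medians over the members moved by less than the spread between libraries under every alternative run. That spread, the pooled SD within genotypes of the members' mean, was 0.075 on the log2 scale, near the size of several medians. The interaction median ran from 0.05 to 0.16, and the median in G3 mTerc-/-Puma+/+ against WT from -0.06 to 0.04. In the main fit 0 members were called in every test but that of G3 mTerc-/-Puma+/+ against Puma-/-. The numbers of members called stayed within 1.5 times the main count in 176 cases, mostly 0 that stayed 0, and left it in 21. In G3 mTerc-/-Puma+/+ against Puma-/- (3 in the main fit) they were 0 with all 15 libraries, 0 with the Xist covariate, 0 in the fit of the genotypes compared, 8 by DESeq2 and 12 with limma sample weights on all 15 libraries (chosen after seeing the data), and 0 to 6 when each library was left out. DESeq2 called 1 in Puma-/- against WT and 4 in the test of any difference, where leaving out a library gave 0 to 1, the 1 without G3 mTerc-/-Puma+/+ replicate 1. Shares over all genes under these alternatives are not given here, and the cause was not tested.

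Replicate numbers mark no shared animal or batch in the labels, and same-numbered libraries did not deviate together (18 pairs, median r 0.0203, 3 over 0.1). The replicate block gave 0 calls in G3 mTerc-/-Puma+/+ against Puma-/- and changed no other number of calls.

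Log2 fold changes near 0 changed sign. In G3 mTerc-/-Puma+/+ against Puma-/- these were Kif23 with library size alone (-0.0031), Cdc25b with no filter (0.0029), the Xist covariate (0.0823) and sample weights (0.0151), and Pttg1 with the Xist covariate (-0.0583). Ccna2 did so in labelled G3 mTerc-/-Puma-/- against WT with library size alone (0.0038) and in G3 mTerc-/-Puma+/+ against WT with sample weights (-0.0146). When each library was left out, the values in G3 mTerc-/-Puma+/+ against WT ran from -0.0493 to 0.0689 for Ttk, -0.0265 to 0.1162 for Hmmr and -0.0368 to 0.1157 for Ccna2. Ccna2 in labelled G3 mTerc-/-Puma-/- against WT ran from -0.1331 to 0.0199. In G3 mTerc-/-Puma+/+ against Puma-/- they ran from -0.1075 to 0.0637 for Cdc25b, -0.0382 to 0.1129 for Kif23 and -0.0275 to 0.1154 for Cenpf. The share of member windows with a CHR was 62.9% in the inner window.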
